A study of Rattus norvegicus with 8 samples.

Results

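The aryl hydrocarbon receptor, its dimer partner and 5 of its best known target genes were read in cultured rat hepatocytes exposed to cadmium. The listed members were the receptor gene Ahr, the partner gene Arnt, the cytochrome P450 genes Cyp1a1, Cyp1a2 and Cyp1b1, the feedback gene Tiparp and the quinone reductase gene Nqo1. Every probe set that the platform annotation gives to a member was taken, which found 8 probe sets for 7 of 7 genes among 15866 probe sets that are not controls. Ahr had 2 probe sets, 1369146_a_at and 1369147_at, and each other member had 1. None of the 8 carried a second symbol. The arrays (Affymetrix RAE230A, 1 colour) gave a linear signal per probe set. The treated group was primary hepatocytes, the parenchymal cells of the liver, given cadmium chloride at 4 µM for 3 h (n = 4), and the control group was hepatocytes of the same 4 rats in culture medium alone (n = 4). The sources used here give no strain, sex or age of the rats, and the cells of both groups had been plated on collagen and kept overnight in culture, so both describe cultured cells and not intact liver.

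The aryl hydrocarbon receptor is a transcription factor of the bHLH-PAS family that waits in the cytosol in a complex with HSP90 and co-chaperones. On binding a ligand such as a dioxin or a polycyclic aromatic hydrocarbon it enters the nucleus, pairs with ARNT and binds DNA at xenobiotic response elements with the core GCGTG. In hepatocytes it is best known for inducing CYP1 enzymes, which oxidize aromatic compounds, and NQO1, which reduces quinones and is also a target of the oxidant-responsive factor NRF2.

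RefSeq promoter windows (GRCr8, 250 bases before to 50 after the start) were matched by symbol for 6 of the 7 members, all but Cyp1a1. The windows of 3 targets that did not pass the test are printed because they differ in the response element core, which stands in capitals on either strand (GCGTG, or CACGC where it lies on the other strand). They run 5′ to 3′ on the gene's strand, with Cyp1a2 at chr8:66978100-66978399 (minus strand), Cyp1b1 at chr6:21094315-21094614 (plus strand) and Tiparp at chr2:152063519-152063818 (plus strand).
Cyp1a2: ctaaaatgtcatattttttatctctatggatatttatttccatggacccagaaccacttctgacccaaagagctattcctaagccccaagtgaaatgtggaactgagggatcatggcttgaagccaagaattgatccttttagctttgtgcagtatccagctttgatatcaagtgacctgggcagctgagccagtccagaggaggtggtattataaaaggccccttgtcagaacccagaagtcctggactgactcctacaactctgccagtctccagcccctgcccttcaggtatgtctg
Cyp1b1: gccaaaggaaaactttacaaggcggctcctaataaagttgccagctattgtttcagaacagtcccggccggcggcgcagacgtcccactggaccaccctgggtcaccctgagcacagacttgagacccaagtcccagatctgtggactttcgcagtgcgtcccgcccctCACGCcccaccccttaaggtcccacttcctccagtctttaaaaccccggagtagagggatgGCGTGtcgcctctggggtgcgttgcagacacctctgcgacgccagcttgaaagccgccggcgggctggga
Tiparp: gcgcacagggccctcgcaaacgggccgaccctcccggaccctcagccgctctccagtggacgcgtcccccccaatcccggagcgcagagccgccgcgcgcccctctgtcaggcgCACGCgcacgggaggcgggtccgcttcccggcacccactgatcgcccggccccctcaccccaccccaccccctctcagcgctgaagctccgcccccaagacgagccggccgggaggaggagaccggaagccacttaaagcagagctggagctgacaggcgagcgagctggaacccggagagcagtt

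The Cyp1a2 window held no core. The Cyp1b1 window held 2, at 81 bases before the start on the other strand and at 20 bases before it on the gene's strand. The core nearer to the start lies inside the longer motif TNGCGTG, which starts 22 bases before the start. The Tiparp window held 1, at 136 bases before the start. Among the other members, the windows of Arnt and Nqo1 held 1 each and that of Ahr held none. Over 33469 promoter windows of the same length, 29.7% held the core on either strand, 10.2% held at least 2 and 4.89% held TNGCGTG. Each TNGCGTG match also counts as a GCGTG match. The motif that NRF2 and its partners bind was searched as TGACNNNGC on both strands. It was in 12.1% of all windows and, among members, in Arnt alone. A match describes letters in these windows and was not tested as a binding site.

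Cyp1a1 was the only member that passed the test. Its signal after cadmium was 419.6, 804.9, 333.7 and 397.7 in rats 1 to 4, against 3504.2, 982.5, 1956.2 and 1103.5 in the control cultures. All 4 treated cultures were below all 4 control cultures. Cyp1a1, which encodes the P450 most used as a readout of receptor activity, averaged 489 ± 214 after cadmium and 1887 ± 1162 in control (SD, n = 4 each). It fell 3.58-fold, a log2 change of -1.84 ± 0.37 (SE; 95% interval -2.69 to -0.99; limma adjusted p = 0.0273). In bulk cultures, fewer cells making a transcript and less transcript per cell cannot be told apart. Over the array, 2.29% of 9519 tested probe sets fell and 5.15% changed in either direction. Higher probe sets made up 55.5% of those calls, against 75.5% after each array was centred on its median. Groups that did not overlap, with cadmium lower, were seen for 7.22% of probe sets. Only 9 tested probe sets had a more negative log2 change than Cyp1a1, which ranked 10 from the lowest.

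The fall of Cyp1a1 differed in size between rats. The log2 change was -3.06 in rat 1, -0.29 in rat 2, -2.55 in rat 3 and -1.47 in rat 4. Rat 2 had the lowest control signal and the highest signal after cadmium. The control signals spanned 3.57-fold between rats, and those after cadmium 2.41-fold. The call ended without rat 1 (log2 change -1.44, adjusted p = 0.0924) and without rat 3 (-1.61, adjusted p = 0.0994), and it was kept without rat 2 (-2.36, adjusted p = 0.00731) and without rat 4 (-1.97, adjusted p = 0.0217). It also ended when dim probe sets were kept in the test (adjusted p = 0.0655) and when the variance was not tied to brightness (adjusted p = 0.0854).

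**Figure D1:**
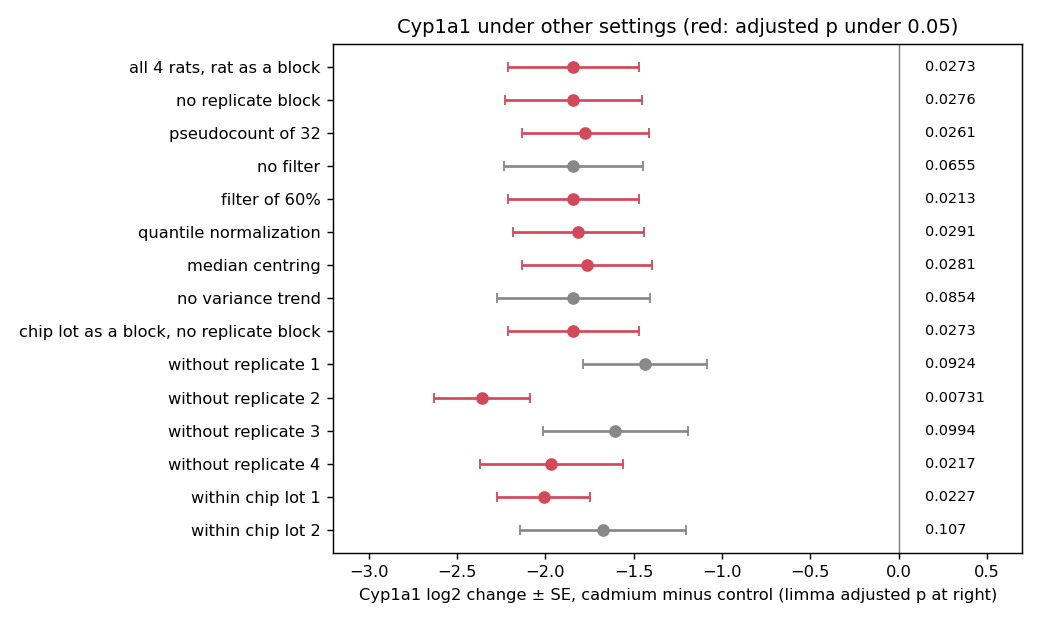
Each row gives the Cyp1a1 log2 change (x axis, cadmium minus control, point with SE bar) under 1 setting, with the limma adjusted p at right and red where it is under 0.05. The change is negative in each of the 15 rows, from -2.36 to -1.44, and the grey rows are those without rat 1 or rat 3, without the filter, without the variance trend and within chip lot 2.

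The plot of Cyp1a1 under other settings separates the direction, which was negative in every setting drawn, from the call. Arrays of rats 3 and 4 came from chip lot 1 and those of rats 1 and 2 from lot 2, per the file headers. Within lot 1 the log2 change was -2.01 ± 0.26 (SE, limma adjusted p = 0.0227, 2 rats), and within lot 2 it was -1.67 ± 0.47 (adjusted p = 0.107, 2 rats). The cadmium arrays were washed on module 2 of the fluidics station and the control arrays on module 1, so the module and the treatment cannot be told apart.

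The P450 gene that neighbours Cyp1a1 on the rat genome, Cyp1a2, did not pass the test. Cyp1a2 oxidizes aromatic amines and caffeine and is made by hepatocytes without an inducer. Its signal after cadmium was 13719, 17611, 11169 and 11304 in rats 1 to 4, against 12386, 17549, 10108 and 11930 in control. The groups overlapped almost fully, and rat 2 was the highest in both. The log2 change was 0.05 ± 0.07 (SE; 95% interval -0.10 to 0.21; adjusted p = 0.706), with a negative sign after quantile normalization (-0.05, adjusted p = 0.742). The annotation placed 0 genes between Cyp1a1 and Cyp1a2 (GRCr8, used here for which genes neighbour each other).

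Cyp1b1, a P450 known mostly from tissues other than liver and able to oxidize oestrogens, had a signal of 206.3, 173.2, 128.4 and 202.9 after cadmium, against 185.7, 118.8, 154.6 and 150.0 in control. The groups overlapped, and the signal was higher after cadmium in 3 of 4 rats, all but rat 3. Its log2 change was 0.21 ± 0.20 (SE; 95% interval -0.24 to 0.67; adjusted p = 0.598). The 95% intervals of Cyp1a2 and Cyp1b1 lie above that of Cyp1a1. The difference between the members' changes was not itself tested.

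The other cytochrome P450 genes serve mainly drug, steroid and fatty acid oxidation. Of 50 with a probe set, 18 did not pass the filter and 32 were tested. Among the 32, 0 passed in either direction in the paired limma fit, against 5.15% of all tested probe sets. An unadjusted p under 0.05 was found for 4. The log2 changes of the 32 lay between -0.30 and 0.40, with a median of -0.01. The median over all tested probe sets was -0.06. Cyp1a1 had a more negative change than each of the 32. Named by the rule as the highest in signal where none passed, Cyp2c22 averaged 10858 ± 2272 after cadmium and 12214 ± 3264 in control, and Cyp2d2 averaged 7915 ± 1634 after cadmium and 7775 ± 362 in control (SD, n = 4 each).

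**Figure D2:**
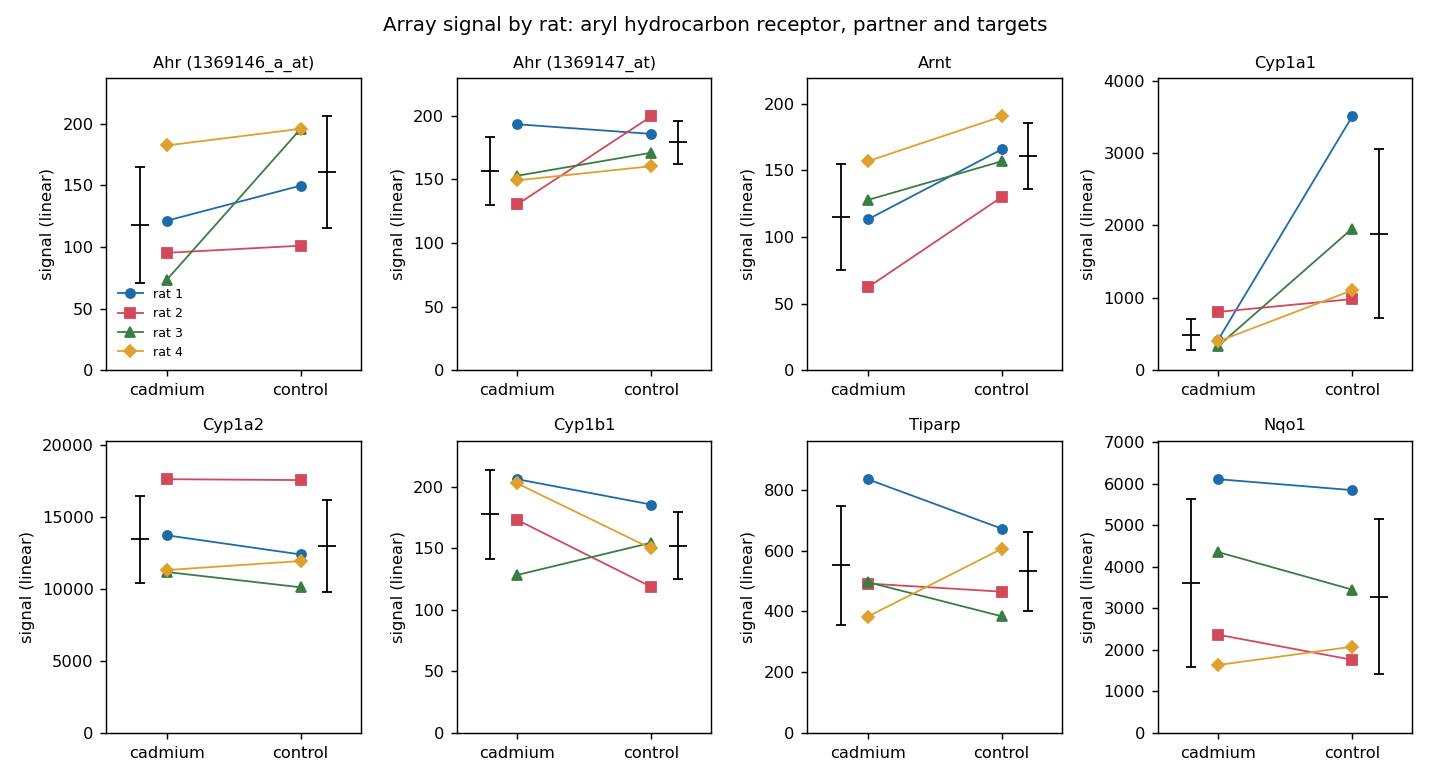
Each panel shows 1 probe set, with the linear signal on the y axis, cadmium left of control on the x axis, a line for each rat and the mean with SD in black beside the points. The Cyp1a1 lines differ in steepness, with rat 2 nearly flat, while the lines of Cyp1a2 and Nqo1 stay in nearly the same order of rats in both groups.

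The receptor itself was read near the filter level, with its 2 probe sets at percentiles 42.4 and 47.7 of mean log2 signal over the array. The filter on dim probe sets lay at a signal of 118 for the mean over all 8 arrays, and 8 of 8 member probe sets passed it. For Ahr probe set 1369146_a_at and for Arnt the treated mean on the log2 scale was below that level, so that they passed through the control arrays, and their changes are given as values only. Ahr probe set 1369146_a_at had a signal of 121.2, 95.2, 73.2 and 182.3 after cadmium, against 149.7, 101.0, 195.7 and 195.8 in control. It was lower after cadmium in 4 of 4 rats, by little in rats 2 and 4 and by most in rat 3 (log2 change -1.41). Its log2 change was -0.47 ± 0.27 (SE).

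Ahr probe set 1369147_at had a signal of 193.4, 130.3, 152.9 and 149.3 after cadmium, against 185.8, 199.5, 171.0 and 160.4 in control. It was lower in 3 of 4 rats, with the largest difference in rat 2 and almost none in rat 1. The log2 change was -0.20 ± 0.19 (SE; 95% interval -0.63 to 0.22; adjusted p = 0.591). The rat that differed most was thus not the same for the 2 probe sets of the receptor.

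Arnt, which also pairs with the hypoxia-inducible factors, had a signal of 113.1, 62.1, 127.7 and 156.8 after cadmium, against 165.7, 129.9, 156.8 and 190.4 in control. Each rat had a lower signal after cadmium, while the groups overlapped. The log2 change was -0.54 ± 0.22 (SE), given as a value only because Arnt passed the filter through the control arrays. A lower value in 4 of 4 rats was seen in 19.7% of tested probe sets.

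Tiparp, an ADP-ribosyltransferase that receptor activity induces and that in turn limits the receptor, had a signal of 835.3, 491.8, 496.5 and 382.7 after cadmium, against 672.6, 465.0, 384.0 and 605.9 in control. It was higher in rats 1, 2 and 3 and lower in rat 4. The log2 change was 0.03 ± 0.17 (SE; 95% interval -0.37 to 0.42; adjusted p = 0.953), and its sign turned without rat 1 (-0.07) or rat 3 (-0.09) and within chip lot 1 (-0.15).

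**Figure D3:**
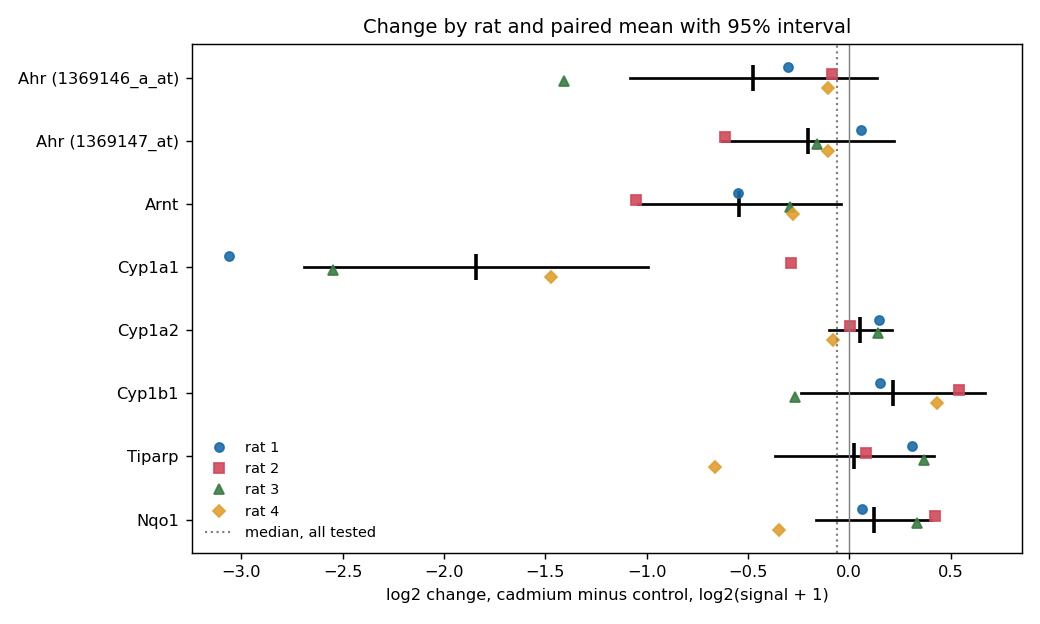
For each probe set the coloured points give the log2 change in each rat, and the black bar gives the paired mean with its 95% interval (x axis, cadmium minus control, log2 of signal + 1). The dotted line is the median of all tested probe sets, -0.06, and Cyp1a1 is the only member whose mean lies below -1. For Ahr probe set 1369146_a_at and Arnt, which passed the filter through the control arrays, the interval is not read as a test.

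In the plot of change by rat, the 8 member probe sets had a median log2 change of -0.09, against -0.06 over all tested probe sets. The median thus lay close to that of the array. Of the 8, 1 passed the test, against 5.15% of all tested probe sets in either direction. The median and the 8 include Arnt and the Ahr probe set that passed the filter through the control arrays. The changes of both are given as values only. Rat 4 was the lowest of the 4 rats for Cyp1a2, Tiparp and Nqo1.

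Nqo1 had a signal of 6115, 2367, 4359 and 1637 after cadmium, against 5852, 1763, 3454 and 2078 in control. Rats 1 and 3 were high and rats 2 and 4 low in both groups. The log2 change was 0.12 ± 0.12 (SE; 95% interval -0.16 to 0.40; adjusted p = 0.639), higher in 3 of 4 rats.

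Nqo1 and Cyp1a2 passed the test of differences between rats. Both arrays of a rat were scanned on the same day and each rat on a day of its own, per the file headers, so differences between rats and between scan days cannot be told apart. Between rats, the moderated F test of limma with cadmium as a term gave an adjusted p of 0.00411 for Nqo1 and 0.0234 for Cyp1a2. The signal of Nqo1 spanned 3.74-fold between rats after cadmium and 3.32-fold in control, and that of Cyp1a2 spanned 1.58-fold after cadmium and 1.74-fold in control. These were 2 of 8 member probe sets, against 1.75% of all tested probe sets. Differences between rats were not particular to the members. Several of the 32 other tested P450 genes also passed this limma test, among them Cyp2d3 (adjusted p = 0.00124), Cyp3a18 (0.00149) and Cyp2c6v1 (0.00406). Others did not, such as Cyp2d2 (0.553) and Cyp2e1 (0.2). Without rat 1 the adjusted p was 0.0757 for Nqo1. For Cyp1a2 it was 0.389 without rat 2, 0.107 without rat 3 and 0.105 when dim probe sets were kept. Cyp1a1 did not pass (adjusted p = 0.725). The rats also differed in the macrophage marker Cd68, whose signal was 708.5, 1013.3, 2152.4 and 2890.9 after cadmium and 736.5, 958.4, 1703.5 and 2380.2 in control for rats 1 to 4 (adjusted p of the same test = 0.000638). The other tested macrophage markers, Cd14 (adjusted p = 0.184) and Csf1r (0.544), did not pass the same test. The part of Cd68 in the differences between rats was not tested.

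Genes linked to Nqo1 through NRF2 moved while Nqo1 did not pass. Of 13 tested genes of the NRF2 system, 8 rose and 2 fell, with a median log2 change of 0.98, against 2.86% of tested probe sets that rose and 2.29% that fell. Hmox1, which breaks down haem, averaged 19720 ± 1336 after cadmium and 664 ± 194 in control (SD, n = 4 each; log2 change 4.93 ± 0.15 SE, adjusted p = 2.83e-07). Osgin1, an oxidant-responsive gene, rose by 1.73 ± 0.09 (adjusted p = 9.04e-06). Abcc3, an organic anion exporter of the basolateral membrane, fell, with a log2 change of -1.94 ± 0.37 (adjusted p = 0.022; 0.0502 without the rat as a replicate block). Its signal was 47.2, 42.0, 250.5 and 62.9 after cadmium, against 324.2, 231.1, 311.8 and 308.8 in control, so that rat 3 stood near the control level. The mean signal of Abcc3 after cadmium, 101, lay below the filter level of 118, so that it passed the filter through the control arrays. Its place among the 2 that fell is subject to that limit. The call of Abcc3 ended without rat 1 (adjusted p = 0.0935) and without rat 2 (adjusted p = 0.109), when dim probe sets were kept (0.0596), when the variance was not tied to brightness (0.0621) and within chip lot 1 (0.347).

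Nfe2l2, which encodes NRF2 and is also reported as a receptor target in mouse cells, stands in both the NRF2 list and the list of further receptor-responsive genes. It averaged 2412 ± 293 after cadmium and 3776 ± 605 in control and fell in 4 of 4 rats (SD, n = 4 each; log2 change -0.64 ± 0.12 SE, adjusted p = 0.0233). The other gene of the receptor-responsive list that fell was Ccng2, an atypical cyclin, with 278 ± 34.9 after cadmium and 433 ± 50.2 in control (SD, n = 4 each; log2 change -0.64 ± 0.13 SE, adjusted p = 0.0267). The call of Nfe2l2 ended without rats 2 and 3 (adjusted p = 0.066 and 0.0859), and that of Ccng2 ended without rats 1, 2 and 3 (adjusted p = 0.0902, 0.123 and 0.116). Both ended without the filter (adjusted p = 0.0503 and 0.0591), within chip lot 1 (0.0962 and 0.363) and within chip lot 2 (0.0734 and 0.0857), and that of Nfe2l2 also when the variance was not tied to brightness (0.0835). Of 18 listed genes 11 had a probe set with their symbol alone and 6 were tested. Of the 6, 0 rose and 2 fell, with a median log2 change of -0.21, against 2.86% of tested probe sets that rose and 2.29% that fell. The 5 that did not pass the filter were Aldh3a1, Cyp2s1, Serpinb2, Slc7a5 and Socs2, each with a mean signal under 100.

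Haem is the prosthetic group of all P450 enzymes. Of 11 tested genes of haem supply and P450 electron transfer, 2 rose and 0 fell, and the median was -0.05. The shares over all tested probe sets were 2.86% that rose and 2.29% that fell. Beside Hmox1, Alas1, the rate-limiting enzyme of haem synthesis, had a signal of 2704.6, 1731.4, 1480.4 and 1630.5 after cadmium, against 1176.8, 957.4, 739.7 and 1081.1 in control. It was higher in each rat and the groups did not overlap (log2 change 0.91 ± 0.11 SE, adjusted p = 0.00236; 0.132 within chip lot 1, where 2 rats were tested).

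**Figure D4:**
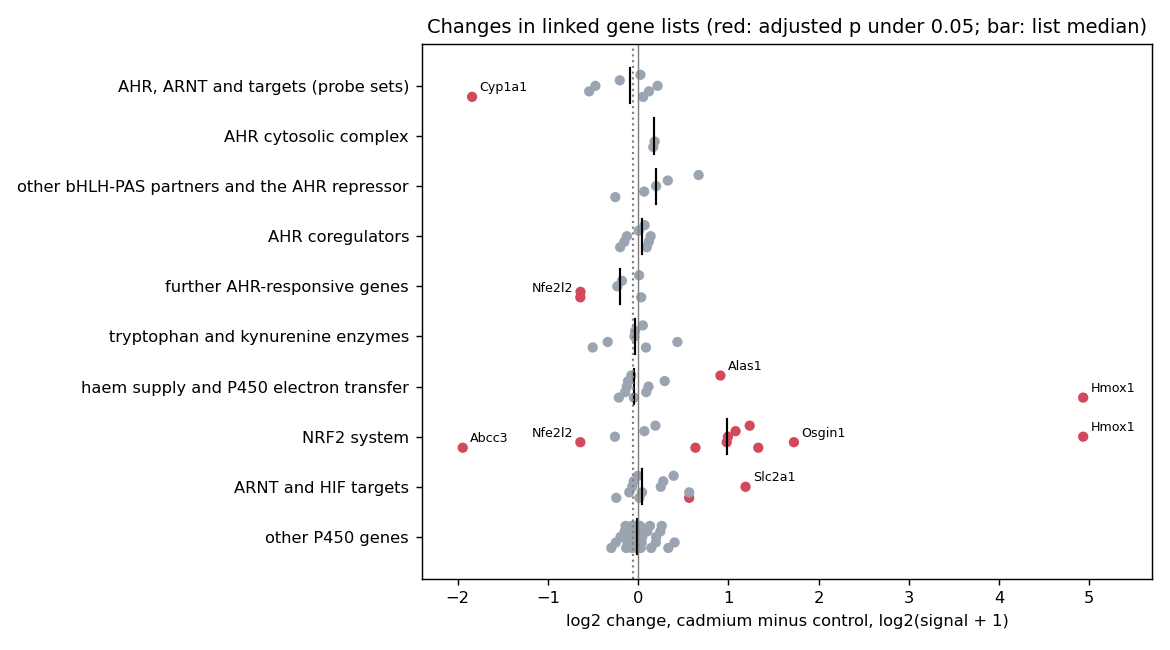
Each point is the log2 change of 1 gene (x axis, cadmium minus control) by gene list, in red where the adjusted p is under 0.05, with the list median as a black bar and the median of all tested probe sets as a dotted line. Cyp1a1 lies apart from the other tested P450 genes, which run from -0.30 to 0.40. The NRF2 system holds most of the red points.

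The plot of linked gene lists also covers the machinery around the receptor, in which no tested gene passed in limma. Of 5 listed genes of the cytosolic complex, 3 had a probe set with their symbol alone and 2 were tested. Neither passed, both with an unadjusted p under 0.05. The HSP90 gene Hsp90ab1 had a log2 change of 0.18 ± 0.07 (adjusted p = 0.187) and Ptges3, which encodes the co-chaperone p23, had 0.17 ± 0.07 (adjusted p = 0.214). Each was higher in 4 of 4 rats. Among 8 tested coregulators of 12 listed, 0 passed in limma (0 also at an unadjusted p under 0.05) and the median was 0.04. Smarca4 was at 0.07 ± 0.09 and Sp1 at 0.10 ± 0.09 (SE).

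The list of other bHLH-PAS proteins, which can share ARNT or resemble it, and the receptor's repressor held 11 genes. Of these, 6 had a probe set with their symbol alone and 5 were tested. Among the 5, 0 passed in limma (2 at an unadjusted p under 0.05) and the median was 0.20. Hif1a, the oxygen-regulated partner of ARNT, averaged 3080 ± 316 after cadmium and 2459 ± 318 in control (SD, n = 4 each; log2 change 0.33 ± 0.09 SE, adjusted p = 0.086; after median centring 0.41, adjusted p = 0.0373). Epas1 had 0.07 ± 0.17 (SE). Of 19 listed targets of ARNT with hypoxia-inducible factors, 17 had a probe set with their symbol alone and 13 were tested. The 4 that did not pass the filter included Adm, whose change was not tested. Its signal was 245.7, 212.8, 202.6 and 938.4 after cadmium, against 101.7, 12.9, 31.0 and 42.2 in control. The groups overlapped for the others, Ankrd37, Hk2 and Pfkfb3. Among the 13, 2 rose and 0 fell, with a median of 0.04. Over all tested probe sets 2.86% rose and 2.29% fell. The glucose transporter gene Slc2a1 had a log2 change of 1.19 ± 0.15 (SE, adjusted p = 0.00309), and Ndrg1, a gene of stress and differentiation, had 0.56 ± 0.11 (adjusted p = 0.0268; 0.107 without the rat as a replicate block). The call of Ndrg1 also ended without rats 1, 2 and 3 (adjusted p = 0.107, 0.0695 and 0.0665), when the variance was not tied to brightness (adjusted p = 0.0828) and within chip lots 1 and 2 (adjusted p = 0.246 and 0.0901).

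Enzymes of the tryptophan and kynurenine route, which make endogenous ligands of the receptor, held 7 tested genes, of which 0 passed in limma (1 at an unadjusted p under 0.05; median -0.03). Tdo2, which opens the ring of tryptophan, had a signal of 1394.5, 2338.0, 1669.9 and 1373.5 after cadmium, against 1440.6, 2431.1, 1799.5 and 4802.1 in control. The 2 cultures of a rat were close in rats 1 to 3 and far apart in rat 4 (log2 change over all rats -0.50 ± 0.27 SE, adjusted p = 0.333). Haao, which acts further down the route, had 0.09 ± 0.17 (SE).

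The genes whose log2 signals over the 8 arrays were most like those of Cyp1a1 were Dact2 (Pearson r = 0.957), LOC102547113 (0.944), Magoh (0.942), Stx16 (0.933) and Evl (0.925), among 8157 compared probe sets with 1 symbol. For Ahr probe set 1369147_at they were Adss2 (0.967), C1galt1 (0.964), Siae (0.933), Akt2 (0.931) and Mpdu1 (0.928). These correlations describe 8 arrays that share 4 rats and 2 treatments, and the highest of so many are high by selection.

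Array medians of the signal ran from 180.0 to 186.4 after cadmium and from 192.2 to 197.2 in control (exact two-sided permutation p = 0.0286, the smallest that 70 assignments allow, which leave the pairing by rat out). With the arrays swapped within rats, the exact p was 0.125, the smallest that 16 assignments allow, so that the paired design could not pass 0.05. The 3′ to 5′ signal ratio of the actin control probe sets was 1.56 ± 0.10 after cadmium and 1.51 ± 0.18 in control (SD, n = 4 each; exact permutation p = 0.771). All 9 hepatocyte marker genes with a probe set were tested and 0 passed in limma (1 at an unadjusted p under 0.05). Alb averaged 39597 ± 5653 after cadmium and 38444 ± 5935 in control, and Serpina1 averaged 26685 ± 1391 after cadmium and 25761 ± 1365 in control. For other cell types the signals of a list were summed per array. The 5 macrophage markers summed to 2905 to 5187 after cadmium and 3209 to 6519 in control, and the 8 stellate cell markers to 852 to 1006 after cadmium and 827 to 1072 in control. The 3 cholangiocyte markers summed to 1103 to 2591 after cadmium and 1717 to 2704 in control. The 5 endothelial markers summed to 96.8 to 232.3 after cadmium and 137.3 to 242.2 in control, and the 5 lymphocyte markers to 189.8 to 252.1 after cadmium and 199.4 to 245.2 in control, each of these 10 with a mean signal under 100. Of the 6 tested markers of these types, 0 passed in limma (0 also at an unadjusted p under 0.05). In the macrophage list Cd14 averaged 2020 ± 494 after cadmium and 2576 ± 1035 in control. In the stellate list Acta2 averaged 360 ± 79.8 after cadmium and 341 ± 52.2 in control, and Col1a1 averaged 192 ± 39.5 after cadmium and 154 ± 16.6 in control. In the cholangiocyte list Epcam averaged 2110 ± 698 after cadmium and 2213 ± 415 in control.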

How the data were processed

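RNA of 8 cultures (4 cadmium, 4 control, 1 of each per rat) was labelled with biotin and hybridized to 1 array each. The deposited table holds linear intensity values, 1 signal for each probe set on an array, made by the authors with MAS5 per the submitters' processing notes (no version, scaling target or detection calls stated). The deposited run settings of each array were read for chip lot and fluidics module. The mean signal without the lowest and highest 2% was between 499.4 and 499.8 on each array, and a signal of 100 or more was found for 64.4% to 66.8% of probe sets. MAS5 values are noisy at the dim end. Precision is limited by the number of arrays.

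Of 15923 probe sets, 57 controls were left out. Symbols came from the platform annotation, updated through the gene number to GRCr8: 12783 probe sets had 1 symbol, 312 several and 2771 none here. In lists the probe set with the highest mean stood for a gene, and genes sharing a probe set with others, such as Ugt1a6 and Gsta2, were not named. Signals were used as log2(signal + 1), which understates changes of dim genes, and the 40% with the lowest mean (under 118) were left out, leaving 9519. The comparison of cadmium and control was a linear model of limma 3.58.1 (R 4.3.3) with the rat as a block and moderated variances that follow brightness, tested two-sided and adjusted by Benjamini-Hochberg over all 9519 with a threshold of 0.05. Any adjusted p printed is from limma. The labels give both samples of a number to the same rat. Deviations from the group means correlated within rats 1 to 4 at 0.35, 0.251, 0.475 and 0.196, and across rats at most at -0.00828. No 2 arrays were duplicates (r of log2 signals at most 0.953). The fit was tested on simulated data.

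All members are named, with up to 3 genes per list that passed, in order of size, or the 2 of highest signal where none did. Members and lists were chosen with earlier results of these data known. Alternatives were no block, the chip lot as a block, a pseudocount of 32, no filter or one of 60%, no variance trend, quantile normalization, centring on array medians, a threshold of 0.1, each rat left out and each lot alone. In the paired fit, leaving out 1 array leaves out its rat.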

Additional observations from a re-analysis of the deposited data

Results flagged for a closer look

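Of 99 groups of 4 values checked (33 probe sets, each after cadmium, in control and as the change by rat), 7 held a sample far from the other 3 by Dixon's ratio; chance gives about 1 in 20. Among the members this was the change of Ahr probe set 1369146_a_at, with rat 3 at -1.41 against -0.30 to -0.08 in the other rats (ratio 0.835). Rat 4 was the sample apart in 4 of the 7: the log2 signal of Epcam after cadmium was 10.06 against 11.21 to 11.30 (0.922), the change of Cd14 was -0.98 against -0.15 to -0.02 (0.864), that of Tdo2 was -1.81 against -0.11 to -0.05 (0.965), and that of Haao was -0.62 against 0.26 to 0.35 (0.907). The log2 signal of Sp1 in control was 9.79 in rat 1 against 9.53 to 9.57 (0.848). That of Abcc3 in control was 7.86 in rat 2 against 8.28 to 8.35 (0.856).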

How the results depend on the processing

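Of 105 member values under alternatives, 95 kept their direction and side of the threshold, 5 lost the call (all Cyp1a1, at the settings given above) and 5 changed sign: Tiparp without replicate 1 (-0.07), without replicate 3 (-0.0896) and within chip lot 1 (-0.15), Nqo1 within lot 1 (-0.00438) and Cyp1a2 after quantile normalization (-0.0466). The member count past the threshold was 1. It was 0 in limma with no filter, with no variance trend and within lot 2. At an unadjusted limma p under 0.05 these settings held 1, 2 and 1 members, and the 2 included Arnt. Arnt and the Ahr probe set that passed the filter through the control arrays are given as values only. Their part in these counts and in the 105 values is thus not read as a test. The member count past the threshold ranged from 0 to 1 with 1 rat left out. Over the array, 490 probe sets passed (272 higher, 218 lower, 55.5% higher). Without the rat as a replicate block 136 were lower, and 319 in either direction passed in both fits; the block decided the calls of Ndrg1 and Abcc3 and of no other gene named here. With no filter 313 passed (113 lower), after median centring 119 were lower (75.5% higher), and with no variance trend 261 passed (156 higher, 105 lower). Within lot 1 101 passed (88 higher, 13 lower) and within lot 2 277 (179 higher, 98 lower). At a threshold of 0.1, 845 passed (458 lower). With 1 rat left out, 167 to 586 passed, 122 to 301 higher and 45 to 285 lower. Differences between rats were called for 167 probe sets, for 87 with no filter and for 52 to 349 with 1 rat left out. Named list genes whose sign turned did not pass in any such setting: Cyp2d2 after quantile normalization (-0.11), without replicates 2 (-0.07) and 3 (-0.10) and within lot 1 (-0.10), Epas1 without replicate 2 (-0.10) and within lot 1 (-0.28), Haao without replicates 2 (-0.000832) and 3 (-0.00245) and within lot 1 (-0.13), Acta2 without replicate 1 (-0.15) and within lot 1 (-0.24), Col1a1 (-0.0312) and Serpina1 (-0.0105) within lot 1, and Epcam without replicate 4 (0.0403) and within lot 2 (0.00782). With 1 rat left out, Tiparp ranged from -0.0896 to 0.254, Epcam from -0.21 to 0.0403, Acta2 from -0.15 to 0.256, Epas1 from -0.0985 to 0.296, Cyp2d2 from -0.0955 to 0.163 and Haao from -0.00245 to 0.321. The difference of array medians (-10.3) passed with free assignment of arrays and not with arrays swapped within rats, a replicate block chosen after seeing the data (exact permutation p = 0.125). The causes were not tested. MAS5 signals near the filter, those of Ahr, Arnt and Cyp1b1, limit what could be seen there.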
